A study of Mus musculus with 50 samples.

Results

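The 10 genes described here are the p53 gene itself, Trp53, and 9 of its transcriptional targets, Cdkn1a, Mdm2, Ccng1, Gdf15, Trp53inp1, Bbc3, Bax, Eda2r and Phlda3. They were chosen by symbol, with earlier results of these data known, from the 45792 genes of a count table of mouse liver RNA-seq. They were followed in 49 of the table's 50 libraries. The mice were C3H/He males, a strain prone to liver tumours, and all tissue was taken at 48 weeks. They ate either a control diet or the ALIOS diet (American lifestyle, rich in trans fat and given with a fructose drink), and some of them also received DEN (diethylnitrosamine), a carcinogen that hepatocytes activate. The groups were non-tumour liver on the control diet (12 libraries) and on the ALIOS diet (11 libraries), spontaneous tumour on the control diet (1 library) and on the ALIOS diet (12 libraries used), and tumour after DEN on the control diet (5 libraries) and on the ALIOS diet (8 libraries). No group held non-tumour liver of a mouse given DEN, so DEN tumours were set against livers of mice of the same diet that received no carcinogen, and in those contrasts the tumour and the carcinogen cannot be told apart. The labels do not tie a tumour to a liver of the same mouse or say how many mice the libraries came from, though the study describes each spontaneous tumour as coming from a different mouse. Where libraries of a group might share a mouse, p-values measure only the spread between libraries. Libraries are named as in the table, N for non-tumour liver and T for tumour.

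The transcription factor p53 is held at a low level in resting cells, mostly by MDM2, a ubiquitin ligase that marks it for degradation. DNA damage, oncogene activity and other stresses release it, and it then switches on genes that halt the cell cycle, promote cell death, repair damage or, as Mdm2 does, switch p53 off again. In liver this pathway is known for its response to carcinogens such as DEN, and Cdkn1a is the target most often used to read it.

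Of the 10 genes, 4 carried a match to the p53 consensus element in the RefSeq window around a start site, and these are shown because the element is the sequence through which p53 reaches its targets. Windows ran from 250 bases before to 50 bases after the annotated start (RefSeq, GRCm38.p6), and 13 windows covered 9 of the genes. The element was taken as 2 adjacent half-sites of 10 bases each with no spacer, with the C and the G at the core of each half-site required and at most 3 mismatches over the 20 bases. The consensus reads the same on both strands. Of all 32851 windows, 453 (1.38%) held such a match, and 22 (0.067%) held one with at most 1 mismatch. Capitals mark the matched element, lower case the 20 bases on either side, and each sequence runs 5′ to 3′ on the strand of its gene.
Cdkn1a: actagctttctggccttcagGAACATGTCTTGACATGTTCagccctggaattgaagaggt
Ccng1: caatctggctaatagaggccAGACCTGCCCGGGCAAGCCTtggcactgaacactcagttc
Trp53: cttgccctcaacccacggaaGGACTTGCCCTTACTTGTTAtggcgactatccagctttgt
Bbc3: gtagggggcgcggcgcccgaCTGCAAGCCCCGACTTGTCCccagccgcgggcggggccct

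The Cdkn1a stretch lies at chr17:29090908-29090967 on the plus strand, and its element begins 51 bases before the start with 1 mismatch. The Ccng1 stretch, chr11:40755442-40755501 on the minus strand, begins its element 195 bases before the start and also has 1 mismatch. The Trp53 element, in chr11:69580264-69580323 on the plus strand, begins 75 bases before the start with 3 mismatches. The Bbc3 element, in chr7:16309466-16309525 on the plus strand, begins 97 bases before 1 of the gene's start sites with 3 mismatches. In the Gencode M21 annotation the Bbc3 stretch lies in an intron of Bbc3 and the other three lie between genes. The windows of Mdm2, Gdf15, Bax, Eda2r and Phlda3 held no match at this limit, which says only that these letters are not in these windows. Trp53inp1 had no window in the RefSeq set and was not scanned.

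The libraries held between 23798251 and 45751398 counted reads (median 32312653). The library T1, labelled an ALIOS diet tumour, was left out, because its 6 kidney marker genes summed to 44840 CPM (counts scaled to library size) against 0.153 to 24.9 in all other libraries and its hepatocyte markers to 4569 CPM against 76636 to 250975. With T1 put back, no member changed its call in either comparison that would have used it. All 9 measured hepatocyte markers were present in every group, and none was at 0 throughout a group. Levels below are CPM on library sizes adjusted by the trimmed mean of M-values (TMM), and fold changes come from edgeR's quasi-likelihood test on the counts, with Benjamini-Hochberg adjustment over all genes tested and a threshold of 0.05. Standard errors (SE) are on the log2 scale. In bulk tissue, fewer cells of a type and less RNA per cell cannot be told apart.

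In control livers the 10 genes spanned a wide range of levels. Compared per length of exon, in RPKM, counts scaled both to library size and to exon length, Bax (11.6 ± 1.46, SD, n = 12), Ccng1 (11.1 ± 1.23) and Trp53inp1 (9.75 ± 2.05) led. Bbc3, Mdm2 and Trp53 followed between 4.19 and 5.04 RPKM, with overlapping ranges between neighbours. Next came Gdf15 (1.33 ± 0.966), Cdkn1a (0.675 ± 0.625), Phlda3 (0.263 ± 0.0806) and Eda2r (0.0738 ± 0.0318). The neighbours Trp53 and Gdf15 did not overlap in range, nor did Phlda3 and Eda2r, whereas Bbc3 and Gdf15 did overlap. In tumours the order was different: Cdkn1a stood in place 4 in every tumour group, at 12.4 ± 12.5 RPKM in spontaneous ALIOS tumours (n = 12), 20.6 ± 8.98 in control DEN tumours (n = 5) and 21.7 ± 9.77 in ALIOS DEN tumours (n = 8). Phlda3 stood in place 6 in each of them. Eda2r remained last, and neighbours in the tumour order overlapped in every case.

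The comparison of tumour with non-tumour liver asked whether the pathway's transcripts differed between them. Of the 10 genes, 9 were higher in spontaneous ALIOS tumours than in ALIOS livers, where 26.9% of the 14183 genes tested were higher and 25.9% lower. The same count, 9 of 10, was higher in ALIOS DEN tumours, against 27.7% of 14434 genes (19.8% were lower), and in control DEN tumours against control livers, against 27.3% of 14731 genes (24.4% were lower). Bbc3 did not pass the test in any of the 3 comparisons, and no member was lower. The median log2 fold change of the members was 1.12 in spontaneous tumours, 1.53 in ALIOS DEN tumours and 1.57 in control DEN tumours, beside 0.01, 0.08 and 0.03 over all genes tested. The 2 ALIOS comparisons share the same 11 livers and are not independent of each other. Because the members were chosen with earlier results of these data known, their contrast with all genes is a description. Complete separation, every tumour above every liver, was reached by 1 member in spontaneous tumours, 5 in ALIOS DEN tumours and 8 in control DEN tumours, against 1.0%, 3.31% and 10.1% of 17728 expressed genes.

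**Figure D1:**
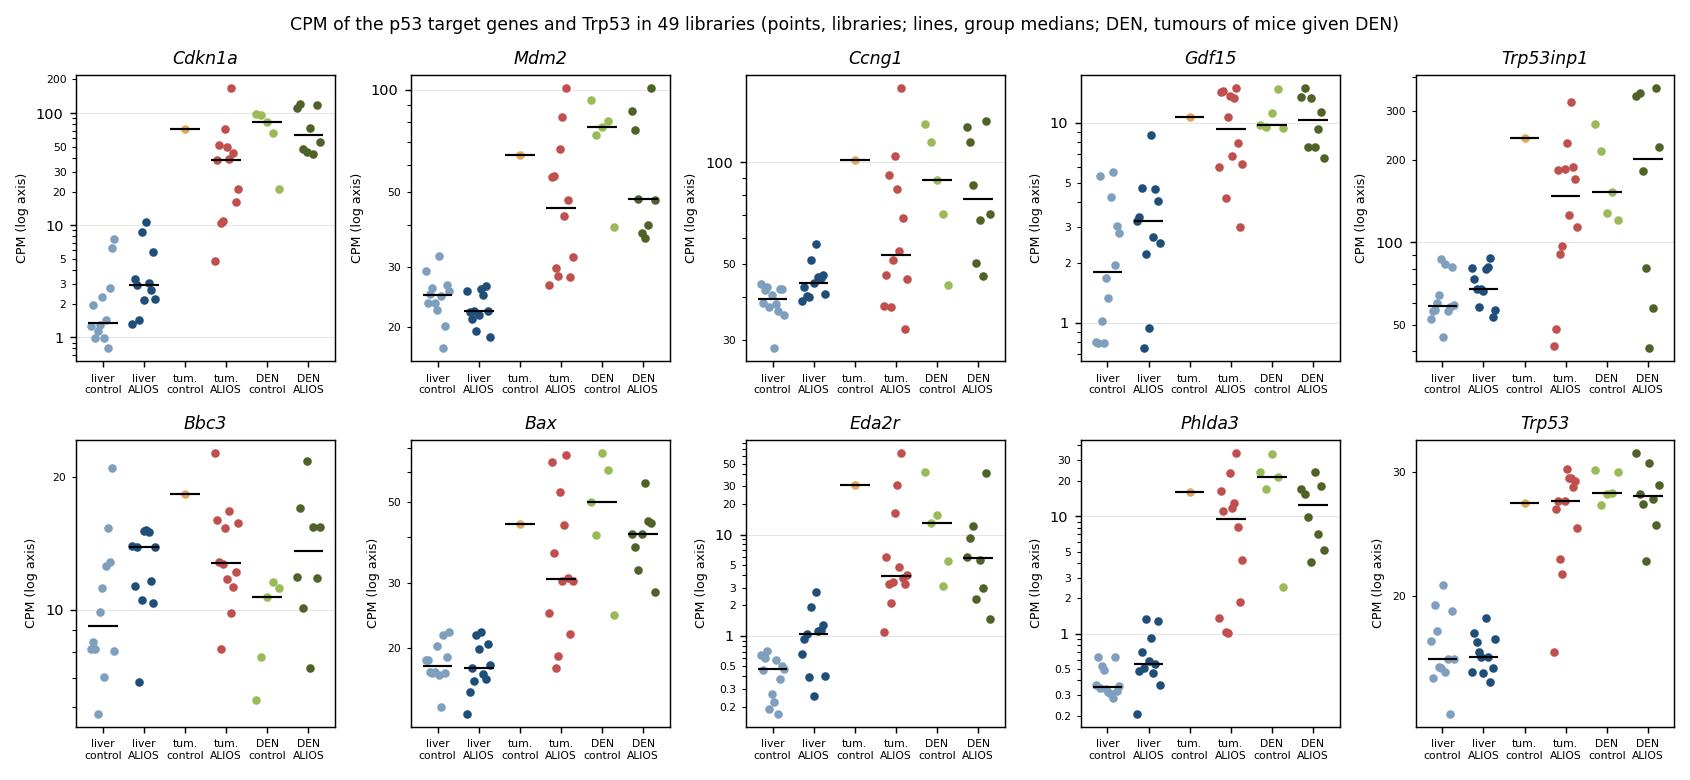
Level of each of the 10 genes in CPM (log axis) in 49 libraries; points are libraries, lines are group medians, and the columns are the control and ALIOS livers, the spontaneous tumours of each diet and the DEN tumours of each diet. Cdkn1a, Eda2r and Phlda3 range over the widest spans, and Trp53 keeps to between 13.6 and 32.0 CPM.

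**Figure D2:**
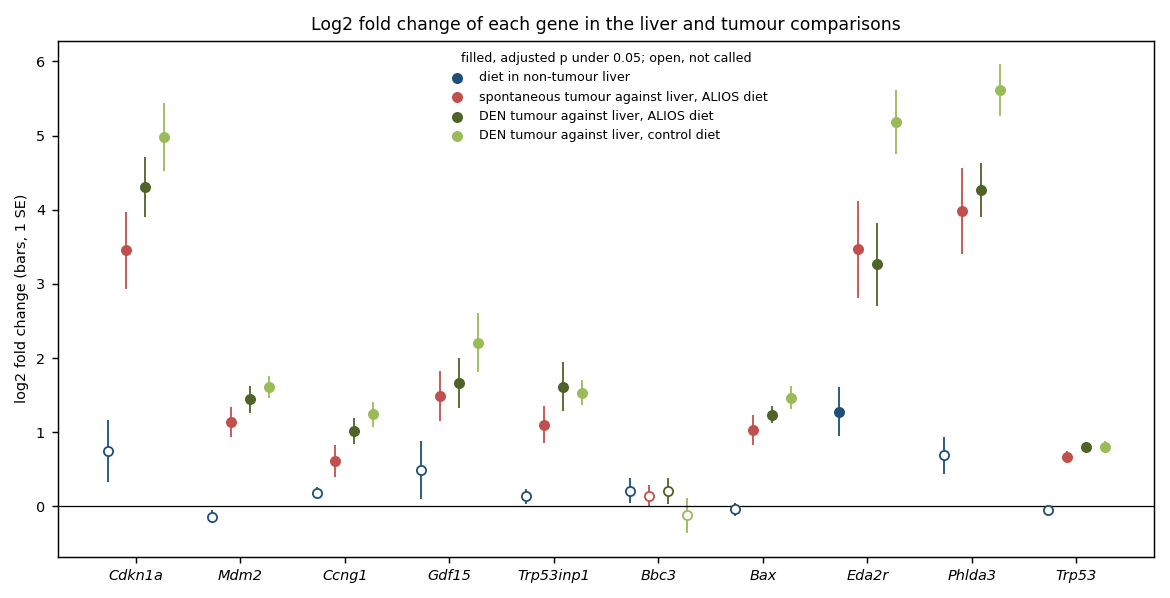
Log2 fold change of each gene in 4 comparisons, with bars of 1 SE; filled points passed an adjusted p of 0.05 in edgeR's test and open points did not. All genes but Bbc3 are filled in the 3 tumour comparisons, and Eda2r is the single filled point for diet in non-tumour liver.

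Trp53 (chr11:69580359-69591873, plus strand) encodes p53, whose activity is set mainly at the protein level, so its transcript need not follow its activity. It ranged in control livers from 13.6 to 20.7 CPM (median 16.3) and in ALIOS livers from 15.1 to 18.6 CPM (median 16.4). In spontaneous ALIOS tumours it ranged from 16.7 to 30.3 CPM (median 27.3), and 11 of the 12 tumours lay above every ALIOS liver, T2 being the exception. ALIOS DEN tumours ranged from 22.5 to 32.0 CPM (median 27.7), and the control DEN tumours had 30.2, 26.98, 27.9, 28.0 and 30.0 CPM in T17 to T21. Every DEN tumour was above every liver of its diet. Trp53 rose 1.58-fold in spontaneous tumours (log2 0.66, SE 0.08, adjusted p = 8.53e-07), and 1.74-fold in DEN tumours of either diet (adjusted p = 4.31e-08 on ALIOS and 3.10e-07 on control diet). Among the 9 genes called, its fold was the smallest in both DEN comparisons and the smallest but for Ccng1 in spontaneous tumours. Its spread was narrow, the highest control DEN tumour being 1.12 times the lowest.

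Mdm2 (chr10:117688875-117710758, minus strand), the p53 ubiquitin ligase, was the only member whose tumours and livers did not overlap in any of the 3 comparisons. ALIOS livers ranged from 18.7 to 26.3 CPM (median 22.2) and spontaneous ALIOS tumours from 26.5 to 101 CPM (median 44.8). ALIOS DEN tumours ranged from 36.5 to 101 CPM (median 47.4). Control livers ranged from 17.3 to 32.4 CPM (median 24.8), and T17 to T21 had 93.1, 73.6, 77.6, 80.6 and 39.3 CPM. All tumours were therefore above all livers of their diet, although in spontaneous tumours the gap was narrow. The rise was 2.20-fold in spontaneous tumours (log2 1.14, SE 0.20, adjusted p = 5.84e-05), 2.71-fold in ALIOS DEN tumours (log2 1.44, SE 0.18, adjusted p = 3.18e-06) and 3.04-fold in control DEN tumours (log2 1.61, SE 0.15, adjusted p = 4.28e-08).

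Cdkn1a (chr17:29090976-29100727, plus strand) encodes p21, an inhibitor of cyclin-dependent kinases that stops the cell cycle. ALIOS livers ranged from 1.32 to 10.7 CPM (median 2.92) and spontaneous ALIOS tumours from 4.77 CPM in T2 to 169 CPM in T11 (median 38.4). Of the 12 tumours, 10 were above every ALIOS liver, and T2 and T5 lay within the range of the livers. The rise was 10.9-fold (log2 3.45, SE 0.52, adjusted p = 1.03e-05). ALIOS DEN tumours ranged from 42.8 to 122 CPM (median 64.5), all above the livers, a rise of 19.8-fold (log2 4.31, SE 0.40, adjusted p = 1.54e-07). In control livers Cdkn1a ranged from 0.801 to 7.59 CPM (median 1.36), and T17 to T21 had 98.8, 96.3, 83.7, 66.2 and 21.01 CPM. Each control DEN tumour was above each control liver, a rise of 31.7-fold (log2 4.98, SE 0.46, adjusted p = 3.76e-08). Part of the exons of Cdkn1a (7.68%) is overlapped on the opposite strand by a gene that the count table does not list.

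Ccng1 (chr11:40748552-40755311, minus strand) encodes cyclin G1, which helps activate MDM2. ALIOS livers ranged from 39.1 to 57.3 CPM (median 44.0) and spontaneous ALIOS tumours from 32.2 to 166 CPM (median 53.2), so the groups overlapped and 5 of the 12 tumours were above every liver. Its rise of 1.53-fold was the smallest that passed the test in spontaneous tumours (log2 0.61, SE 0.22, adjusted p = 0.0211), and without T11 the log2 value was 0.41 with an adjusted p of 0.0488. In ALIOS DEN tumours it ranged from 46.2 to 133 CPM (median 78.0) and rose 2.02-fold (log2 1.01, SE 0.17, adjusted p = 0.000111), with 6 of 8 tumours above every liver. Control livers ranged from 28.4 to 43.7 CPM (median 39.6), and T17 to T21 had 129, 115, 88.5, 70.6 and 43.4 CPM. Only T21 fell inside the range of the control livers, and the rise was 2.36-fold (log2 1.24, SE 0.16, adjusted p = 3.97e-06).

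Bax (chr7:45461697-45466898, minus strand) and Bbc3 (chr7:16308393-16318205, plus strand; the protein is PUMA) both belong to the BCL2 family and promote apoptosis through mitochondria, and they behaved differently. Bax ranged in ALIOS livers from 13.2 to 22.1 CPM (median 17.6), in spontaneous ALIOS tumours from 17.7 to 67.0 CPM (median 30.8) and in ALIOS DEN tumours from 28.4 to 56.3 CPM (median 40.9). It rose 2.05-fold in spontaneous tumours (log2 1.03, SE 0.20, adjusted p = 0.000164), where 9 of 12 tumours were above every liver, and 2.35-fold in ALIOS DEN tumours (log2 1.23, SE 0.11, adjusted p = 1.39e-07), where all 8 were. Control livers ranged from 13.8 to 22.1 CPM (median 17.9) for Bax, and T17 to T21 had 49.8, 40.6, 67.8, 61.0 and 24.5 CPM, all above the livers, with a rise of 2.76-fold (log2 1.46, SE 0.16, adjusted p = 2.58e-07). A neighbouring gene on the same strand, not listed in the count table, shares 12.18% of the exon bases of Bax.

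Bbc3 had tumour values spread through those of the livers. It ranged from 6.85 to 15.2 CPM (median 13.8) in ALIOS livers, from 8.12 to 22.7 CPM (median 12.8) in spontaneous ALIOS tumours and from 7.35 to 21.8 CPM (median 13.6) in ALIOS DEN tumours. Its log2 difference was 0.14 in spontaneous tumours (SE 0.15, adjusted p = 0.420), 0.21 in ALIOS DEN tumours (SE 0.18, adjusted p = 0.348) and −0.12 in control DEN tumours (SE 0.24, adjusted p = 0.696). Control livers ranged from 5.80 to 20.96 CPM (median 9.15), and T17 to T21 had 6.22, 7.80, 10.7, 11.6 and 11.2 CPM, none of them above the highest liver. The library T2, lowest among the spontaneous tumours for Cdkn1a, Mdm2, Trp53inp1, Eda2r and Trp53, was the highest for Bbc3.

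Eda2r (chrX:97333840-97377216, minus strand) encodes a receptor of the tumour necrosis factor family that binds ectodysplasin A2, and it was barely detected in control liver, with 3 to 23 reads a library and 0.172 to 0.714 CPM (median 0.470). ALIOS livers ranged from 0.255 to 2.71 CPM (median 1.04) and spontaneous ALIOS tumours from 1.09 to 64.2 CPM (median 3.90), with 10 of 12 tumours above every liver. The rise was 11.03-fold (log2 3.46, SE 0.65, adjusted p = 0.000114), but 1 library weighed heavily: without T11 the log2 value was 2.72. By DESeq2, whose default replaces outlying counts in larger groups, the log2 value was 2.67. Whether the count of T11 was replaced there was not examined. In ALIOS DEN tumours it ranged from 1.48 to 40.2 CPM (median 5.83), with 6 of 8 tumours above every liver, and the rise was 9.61-fold (log2 3.26, SE 0.56, adjusted p = 0.000105). Without T26, the highest of the 8, the log2 value was 2.43. In control DEN tumours T17 to T21 had 42.0, 12.99, 15.5, 3.09 and 5.48 CPM, all above the control livers, and the rise was 36.3-fold (log2 5.18, SE 0.43, adjusted p = 9.14e-09), or log2 4.42 without T17. The rise held its direction and its call without each of these libraries.

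Phlda3 (chr1:135766119-135769136, plus strand) encodes a small protein that blocks the kinase Akt from reaching the membrane and so withdraws a survival signal. It too was close to the floor in control livers, with 5 to 19 reads and 0.286 to 0.632 CPM (median 0.352), and ranged from 0.209 to 1.32 CPM (median 0.555) in ALIOS livers. Spontaneous ALIOS tumours ranged from 1.02 to 34.6 CPM (median 9.55), with T5 and T6 inside the range of the livers, and the rise was 15.8-fold (log2 3.98, SE 0.58, adjusted p = 6.12e-06). ALIOS DEN tumours ranged from 4.06 to 23.7 CPM (median 12.6), all above the livers, a rise of 19.2-fold (log2 4.27, SE 0.37, adjusted p = 6.72e-08). T17 to T21 had 23.7, 17.1, 33.7, 21.3 and 2.50 CPM, again all above the control livers, and at 48.9-fold this was the highest fold change of the 10 genes in any comparison (log2 5.61, SE 0.35, adjusted p = 1.89e-10).

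Trp53inp1 (chr4:11156431-11174379, plus strand) encodes a stress-induced nuclear protein that cooperates with p53. ALIOS livers ranged from 53.4 to 87.7 CPM (median 67.5) and spontaneous ALIOS tumours from 41.8 CPM in T2 to 324 CPM (median 148). It rose 2.15-fold (log2 1.10, SE 0.25, adjusted p = 0.000801). Of the 12 tumours, 10 were above every liver, and T2 and T3 (48.0 CPM) were below every liver. In ALIOS DEN tumours Trp53inp1 ranged from 41.0 CPM in T24 to 367 CPM (median 202). The rise there was 3.06-fold (log2 1.61, SE 0.33, adjusted p = 0.000589), although 3 of the 8 tumours were not above the livers. Control livers ranged from 44.9 to 87.0 CPM (median 58.4), and T17 to T21 had 270, 214, 128, 153 and 120 CPM. No control DEN tumour overlapped the control livers, and the rise was 2.90-fold (log2 1.53, SE 0.17, adjusted p = 5.11e-07).

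Gdf15 (chr8:70629393-70632456, minus strand) encodes a secreted hormone of the TGF-β superfamily that reduces appetite, and is switched on both by p53 and by the integrated stress response. It ranged from 0.748 to 8.68 CPM (median 3.24) in ALIOS livers, from 3.01 to 15.01 CPM (median 9.32) in spontaneous ALIOS tumours and from 6.69 to 14.9 CPM (median 10.3) in ALIOS DEN tumours. The groups overlapped: 6 of 12 spontaneous and 5 of 8 ALIOS DEN tumours were above every ALIOS liver. The rise was 2.81-fold in spontaneous tumours (log2 1.49, SE 0.34, adjusted p = 0.000726) and 3.17-fold in ALIOS DEN tumours (log2 1.66, SE 0.33, adjusted p = 0.000478). Control livers ranged from 0.791 to 5.66 CPM (median 1.81), T17 to T21 had 9.71, 9.58, 11.2, 14.7 and 9.39 CPM, and the groups did not overlap (4.61-fold, log2 2.20, SE 0.40, adjusted p = 0.000127). The 9 genes of the integrated stress response list moved beside it, with 7, 7 and 6 of 9 higher and none lower in spontaneous, ALIOS DEN and control DEN tumours, among them Trib3 (log2 2.94, 3.17 and 3.32). Over all genes tested, 26.9%, 27.7% and 27.3% were higher in these comparisons. The part of the stress response genes in the Gdf15 result was not tested.

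**Figure D3:**
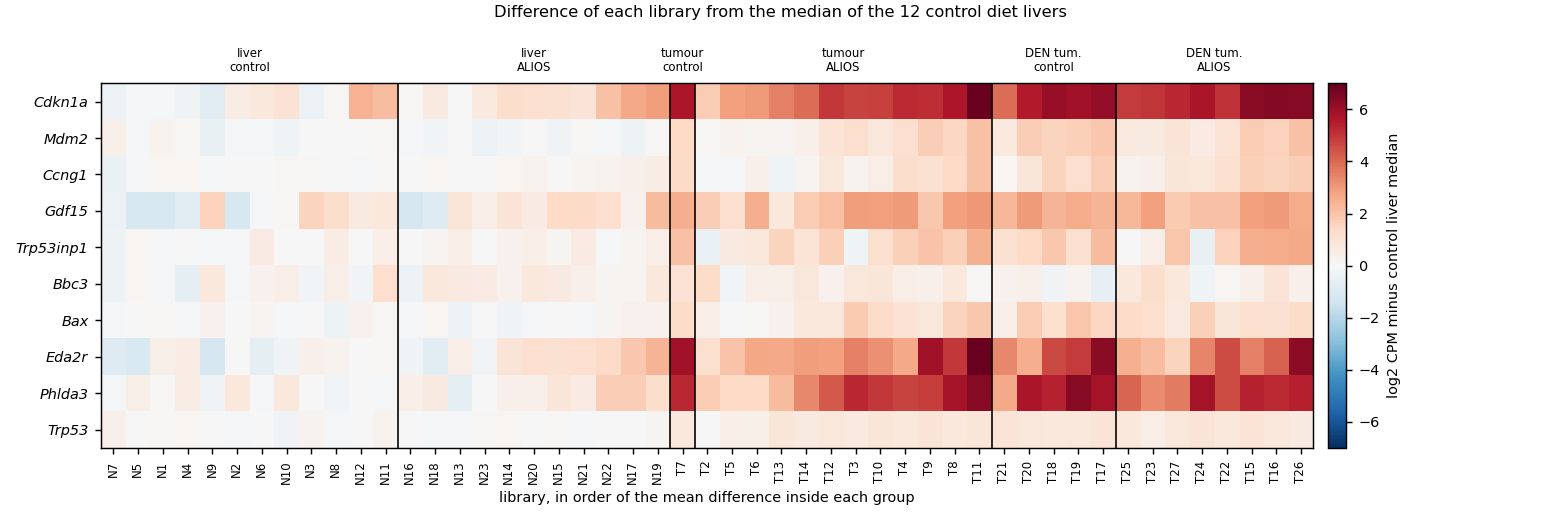
Log2 CPM of each gene in each of 49 libraries minus the median of the 12 control livers; columns are libraries, grouped by tissue, DEN and diet and ordered inside a group by their mean difference, and red is higher. Rows for Cdkn1a, Eda2r and Phlda3 turn dark in most tumours, the row for Bbc3 stays pale, and T2, T5 and T6 are the palest columns of the spontaneous ALIOS tumours.

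The tumours differed widely from each other. Counted per tumour, the number of members above every liver of the same diet ran from 3 in T5 and 4 in T2, through 6 in T6 and T13, to between 8 and 10 in the other 8 spontaneous ALIOS tumours. All 10 members were above every ALIOS liver in T8. Of all 17728 expressed genes, between 14.3% (T6) and 28.8% (T9) were above every liver in these tumours. The study's own clustering placed T6 in a sub-cluster of its non-tumour livers. Whether T6 held non-tumour tissue was not tested. Control DEN tumours had 8 to 9 members above every liver, against 23.5% to 26.1% of all genes, and ALIOS DEN tumours 7 to 10, against 19.7% to 32.5%. Between the highest and the lowest spontaneous ALIOS tumour there was a ratio of 58.98 for Eda2r, 35.5 for Cdkn1a and 34.1 for Phlda3, against 3.82 for Mdm2 and 1.81 for Trp53. Among ALIOS DEN tumours the ratio was 27.1 for Eda2r, 8.95 for Trp53inp1 (7.75 in spontaneous ALIOS tumours), 5.84 for Phlda3, 2.85 for Cdkn1a and 1.42 for Trp53.

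Single libraries marked the ends of these ranges. T11 was the highest spontaneous ALIOS tumour for 8 of the members and T2 the lowest for 5. T2 also had the lowest hepatocyte marker sum of these 12 tumours (80424 CPM, group median 186740) and the highest macrophage marker sum (447 CPM, group median 247), and the part of its cell make-up in its low values was not tested. Among control DEN tumours T21 was the lowest for 7 members. It had the highest sum of the 10 proliferation genes in the group (54.0 CPM, group median 42.5), whereas T2 had the lowest of its group (16.3 CPM, group median 27.7). T21 also had the lowest hepatocyte marker sum of the control DEN tumours (178217 CPM, group median 192189). The part of these lists in the low values of T21 and T2 was not tested.

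The single spontaneous tumour on the control diet, T7, has no replicate and was not tested. Its Cdkn1a level was 72.3 CPM, which is 53.3 times the control liver median, and its Eda2r and Phlda3 levels of 31.1 and 15.99 CPM were 66.1 and 45.4 times theirs. These 3 values rest on 2495, 1073 and 552 reads. T7 lay above every control liver for 9 of the 10 genes, with Bbc3 at 18.3 CPM as the exception, and for 20.8% of the 17728 expressed genes. Its Mdm2 (64.2 CPM), Ccng1 (101 CPM), Bax (43.5 CPM), Trp53inp1 (240 CPM), Gdf15 (10.7 CPM) and Trp53 (27.1 CPM) all lay within the range of the spontaneous ALIOS tumours.

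In non-tumour liver the ALIOS diet changed 1 of the 10 genes, where 6.73% of 13723 genes tested were higher and 4.51% lower. Eda2r rose 2.42-fold (log2 1.27, SE 0.33, adjusted p = 0.0172), from 0.172 to 0.714 CPM in control livers (median 0.470) to 0.255 to 2.71 CPM in ALIOS livers (median 1.04). These levels rest on 3 to 23 and 7 to 92 reads. Of the 11 ALIOS livers, 7 were above every control liver, and the groups overlapped. The call held when each liver was left out in turn, with the largest adjusted p without N19 (log2 1.03, adjusted p = 0.0444), and was lost when all 6 groups were fitted together (log2 1.29, adjusted p = 0.257). Phlda3 had a log2 difference of 0.69 (SE 0.25, adjusted p = 0.0740), Cdkn1a of 0.75 (SE 0.42, adjusted p = 0.238) and Ccng1 of 0.19 (SE 0.07, adjusted p = 0.0886), none past the threshold. Trp53 differed by −0.05, Bax by −0.04 and Mdm2 by −0.14 on the log2 scale (adjusted p = 0.643, 0.787 and 0.287). The members' median was 0.20 and that of all genes −0.02.

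Markers of several other cell types moved with the diet too, and the macrophage markers had the most genes called. Of these 8 genes 7 were higher in ALIOS livers, and their sum ranged from 158 to 419 CPM in control livers (median 244) and from 230 to 769 CPM in ALIOS livers (median 403), with none at 0 throughout a group. Of the 6 proliferation genes tested, 3 were higher and none lower. N19, the ALIOS liver with the highest macrophage sum (769 CPM) and the highest proliferation sum (53.8 CPM, group median 13.8), was also the highest ALIOS liver for 7 of the 10 members, among them Eda2r and Cdkn1a. Lymphocyte markers were 2 higher of 4 tested, stellate cell and matrix markers 3 of 8 and cholangiocyte markers 2 of 5, with none lower and none at 0 throughout a group. Their sums ranged from 1.95 to 9.67, from 125 to 259 and from 8.53 to 54.5 CPM in control livers, and from 3.45 to 13.3, from 172 to 530 and from 14.2 to 219 CPM in ALIOS livers. N17 had the highest sum of these 3 lists among ALIOS livers, and it was second to N19 for Eda2r (1.91 CPM) and Cdkn1a (8.78 CPM) and the highest for Phlda3 (1.32 CPM). The part of these cells in the Eda2r result was not tested.

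DEN and spontaneous tumours of the ALIOS diet were then compared with each other, which asks whether the carcinogen left a difference in the pathway. None of the 10 members passed the test and none reached an unadjusted p of 0.05. Across all 14845 genes edgeR called 0 (0%) in either direction, with 1079 at an unadjusted p under 0.05, and DESeq2 called 52 higher and 23 lower. The largest difference among the members was that of Cdkn1a, log2 0.81 higher in DEN tumours, with an approximate 95% interval from the standard error of −0.13 to 1.75 (adjusted p = 0.852). For Trp53 the difference was 0.08 with an interval of −0.12 to 0.28, and for Eda2r −0.25 with an interval of −1.70 to 1.21. The data therefore bound a difference in Trp53 closely and one in Eda2r hardly at all. The lowest Cdkn1a value among ALIOS DEN tumours, 42.8 CPM, lay above the median of the spontaneous tumours.

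Diet among DEN tumours gave no member past the threshold either, and of 14944 genes edgeR called 0 (0%) higher and 2 (0.0134%) lower, with 1273 at an unadjusted p under 0.05 and 64 higher and 88 lower by DESeq2. The log2 difference of ALIOS from control DEN tumours was 0.08 for Cdkn1a (approximate 95% interval −0.65 to 0.82), 0.55 for Bbc3 (0.07 to 1.02, adjusted p = 0.565) and −0.65 for Eda2r (−2.15 to 0.86). Bbc3 was the single member with an unadjusted p under 0.05. Whether the diet difference in DEN tumours differed from that in non-tumour liver was tested as an interaction, in which 1.04% of 15606 genes were called above 0 and 1.23% below, and no member was called. The lowest member values were those of Eda2r (log2 −1.93, SE 0.75, adjusted p = 0.172) and Phlda3 (log2 −1.34, SE 0.53, adjusted p = 0.177). Without T21, Phlda3 reached log2 −1.62 with an adjusted p of 0.0463.

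Members of 1 pathway need not vary together, so each was correlated with Cdkn1a over the libraries of a single group, in log2 CPM. Permutation p-values were adjusted over the 36 relations tested (9 genes in 4 groups). Genes outside the members were not tested in this way. No share over all genes therefore stands beside the counts below, and they cannot be read as particular to the pathway. In the 12 spontaneous ALIOS tumours 7 of the 9 relations passed, all positive: Phlda3 (Pearson's r = 0.94, Spearman's rho = 0.85), Mdm2 (0.92, 0.93), Ccng1 (0.87, 0.92) and Eda2r (0.84, 0.78) each had an adjusted permutation p of 0.00101 for r. Trp53 followed (r = 0.81, rho = 0.71, adjusted permutation p = 0.00627), as did Bax (0.80, 0.80, 0.00702) and Trp53inp1 (0.74, 0.85, 0.0226). After leaving out T2 and T11, the tumours farthest from the median for Cdkn1a, r was 0.96 for Phlda3, 0.90 for Mdm2, 0.82 for Ccng1, 0.81 for Bax, 0.72 for Trp53 and 0.65 for Eda2r. For Trp53inp1 it was 0.43, so its r rested on those tumours, while its rho over all 12 had an adjusted permutation p of 0.00876. Gdf15 had r = 0.64 (rho = 0.75, adjusted permutation p = 0.0761 for r and 0.0278 for rho). Bbc3 alone was negative (r = −0.30, rho = −0.22, adjusted permutation p = 0.527 for r), and its r turned to 0.47 without T2 and T11.

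In control livers none of the 9 relations passed by either coefficient (median r 0.16). In ALIOS livers 4 passed for r: Ccng1 (0.91, adjusted permutation p = 0.00101), Eda2r (0.84, 0.00576), Phlda3 (0.83, 0.0103) and Bax (0.79, 0.0126). By rank, Ccng1 and Eda2r passed (rho = 0.85 for both, adjusted permutation p = 0.00876), while Phlda3 (rho = 0.67, adjusted permutation p = 0.0787) and Bax (rho = 0.65, adjusted permutation p = 0.0935) did not. Without N19 and N17 the 4 values of r became 0.75, 0.66, 0.79 and 0.59, in the order given for r. In the 8 ALIOS DEN tumours Ccng1 alone passed (r = 0.89, rho = 0.83, adjusted exact permutation p = 0.0284 for r and 0.0503 for rho). The 5 control DEN tumours were too few for a correlation. Whether the relations differ between groups was not tested.

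**Figure D4:**
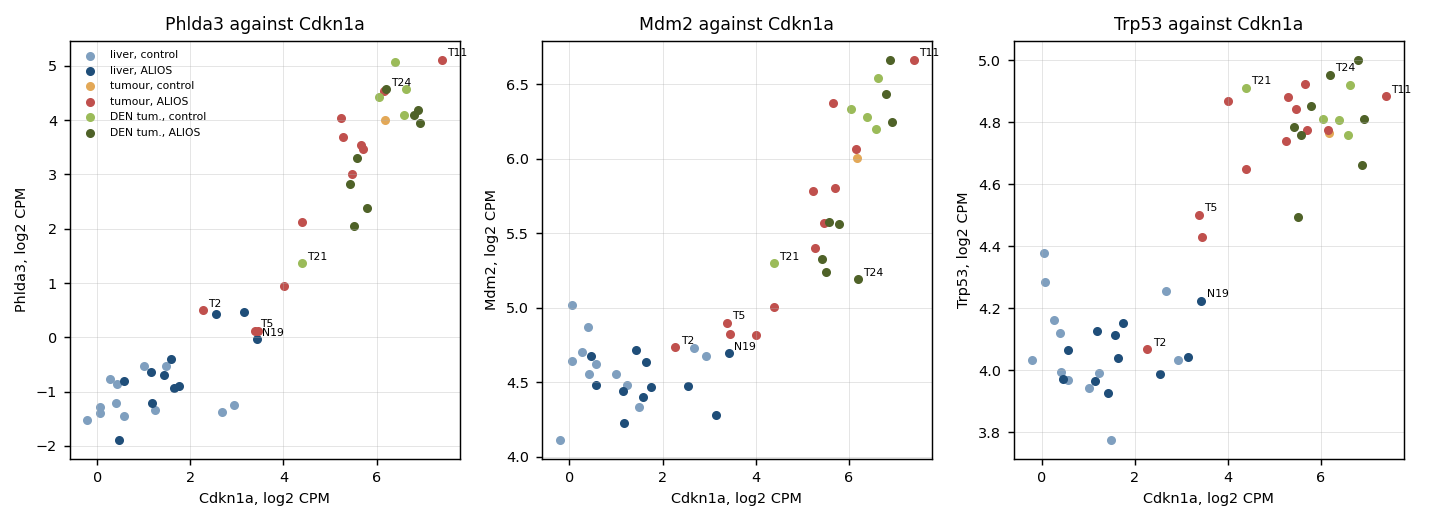
Log2 CPM of Phlda3, Mdm2 and Trp53 against that of Cdkn1a; points are 49 libraries coloured by tissue, DEN and diet, and 6 of them are named. Among spontaneous ALIOS tumours all 3 are higher in T11, the highest for Cdkn1a, than in T2, the lowest, and T21 stands below the other control DEN tumours for Cdkn1a, Mdm2 and Phlda3.

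Other genes of the p53 pathway, taken from lists by role and most of them known targets, gave a mixed account. Over all genes tested, 26.9%, 27.7% and 27.3% were higher and 25.9%, 19.8% and 24.4% lower in spontaneous, ALIOS DEN and control DEN tumours. In the list of arrest and feedback genes 7 of 11 tested were higher and none lower in spontaneous tumours, 8 higher and 1 lower in ALIOS DEN tumours, and 6 of 11 higher and none lower in control DEN tumours, with median log2 values of 0.99, 1.05 and 1.44. Psrc1, which encodes a spindle protein, went from 0 to 0.324 CPM in ALIOS livers (median 0.126) to 0.300 to 105 CPM in spontaneous ALIOS tumours (median 30.2), a log2 rise of 7.99 (SE 0.95, adjusted p = 6.44e-07), and to 9.16 to 78.1 CPM in ALIOS DEN tumours (log2 8.03). The lowest spontaneous tumour for Psrc1 fell inside the range of the ALIOS livers. Btg2, an antiproliferative gene, rose by log2 2.57 in spontaneous tumours (adjusted p = 6.08e-07). Cdkn2a, the locus of the tumour suppressors INK4a and ARF, rose by log2 4.87 in ALIOS DEN tumours (adjusted p = 2.09e-07). It enters the counts and medians of this list but is not a usual p53 target. Ckap2, which encodes a microtubule-associated protein of dividing cells, rose by log2 4.995 in control DEN tumours (adjusted p = 3.29e-10). Gadd45a, a growth arrest gene, fell by 0.63 on the log2 scale in ALIOS DEN tumours (adjusted p = 0.00476).

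Of 12 cell death genes 6 were higher and 2 lower in spontaneous tumours, 7 higher and none lower in ALIOS DEN tumours, and 7 higher and 1 lower in control DEN tumours, with medians of 0.51, 0.76 and 0.95. Tnfrsf10b, the mouse death receptor for TRAIL, rose by log2 3.71, 4.06 and 5.003, and Zmat3, which encodes an RNA-binding p53 effector, by log2 1.57, 1.87 and 2.01 (largest adjusted p = 5.18e-05). Fas, a further death receptor, fell by 0.51 in spontaneous and by 0.53 in control DEN tumours on the log2 scale (adjusted p = 0.000567 and 0.0340), and had −0.32 with an adjusted p of 0.0523 in ALIOS DEN tumours. Ei24 fell by 0.37 in spontaneous tumours (adjusted p = 0.00592).

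The 12 repair and metabolism genes showed no common direction: 5 were higher and 3 lower in each ALIOS comparison, and 5 higher and 1 lower in control DEN tumours, with medians of 0.10, 0.06 and 0.05. Sesn2, a sestrin that restrains mTORC1, rose by log2 1.45 in spontaneous and 1.65 in ALIOS DEN tumours, while Sesn1, its relative, fell by 0.44, 0.38 and 0.46 on the log2 scale in the 3 comparisons. Ddit4, a further mTORC1 inhibitor, rose by log2 1.26, 2.16 and 3.19, and Polk, a DNA polymerase that bypasses lesions, by log2 1.92 in control DEN tumours. Dcxr, a carbonyl reductase, fell by 0.71 and 0.75 on the log2 scale in the spontaneous and the ALIOS DEN tumours. Of the kinases and modifiers upstream of p53, 1, 2 and 3 of 10 tested were higher and none lower, beside 26.9%, 27.7% and 27.3% of all genes that were higher. The genes named by the rule were Trp53bp1, a damage response adaptor (log2 0.57 in spontaneous and 0.62 in ALIOS DEN tumours), and Chek1 and Chek2, the checkpoint kinases (log2 1.80 and 0.70), in control DEN tumours. Usp7, a deubiquitinase that acts on MDM2 and p53, rose by log2 0.16 in ALIOS DEN tumours (adjusted p = 0.0412).

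In non-tumour liver each of these lists had 1 gene or none called for diet, of 9 to 12 tested. Over all 13723 genes tested 6.73% were higher and 4.51% lower, and lists this short cannot be set apart from those shares. None of the 9 arrest and feedback genes tested was called. Among the cell death genes Pmaip1, which encodes the BCL2 family protein NOXA, rose by log2 1.01 (SE 0.32, adjusted p = 0.0417), among repair genes Ercc5, a nucleotide excision repair nuclease, fell by 0.31 on the log2 scale (adjusted p = 0.0347), and among the upstream kinases Chek1 rose by log2 1.63 (adjusted p = 0.0186). Of 10 proliferation genes 7 were higher and 1 lower in spontaneous tumours, 8 higher and 1 lower in ALIOS DEN tumours and 9 higher in control DEN tumours, and their sum ranged from 7.07 to 53.8 CPM in ALIOS livers, from 16.3 to 83.7 CPM in spontaneous ALIOS tumours and from 17.9 to 175 CPM in ALIOS DEN tumours. Hepatocyte markers were 2 higher and 3 lower of 9 in spontaneous tumours and 2 higher and 2 lower in each DEN comparison, with summed medians of 114449 CPM in ALIOS livers and 186740 CPM in spontaneous ALIOS tumours. Macrophage markers were 1 higher and 6 lower of 8 in spontaneous tumours, with sums of 87.4 to 447 CPM, and 1 higher and 1 lower in each DEN comparison. Over all genes tested in the tumour comparisons, 26.9%, 27.7% and 27.3% were higher and 25.9%, 19.8% and 24.4% lower, in the order given for proliferation. The part of these lists in the members' values was not tested.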

How the data were processed

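RNA from liver and tumour tissue was sequenced, and per the labels and the study's methods the authors aligned the reads with STAR to mm10 and counted them over Gencode exons with HTSeq, and deposited raw counts for each gene. Tool versions and the strand setting of the count are not given in the sources used here. Libraries were grouped by the labels' diet, tissue type and DEN treatment. No 2 libraries of a group were so alike as to be 1 library deposited again (smallest chi-square per gene 12.0).

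Counts were analysed in R 4.3.3 with edgeR 4.0.16 (filterByExpr, TMM, glmQLFit and glmQLFTest, Benjamini-Hochberg at 0.05), each comparison fitted on its own groups over all genes that passed the filter, which all 10 members did. Alternatives were DESeq2 1.42.0, other size factors, no filter, all groups together, a replicate block and libraries left out. Log2 CPM used a prior count of 2. Correlations used permutation p-values (100000 resamples, or all permutations for 8 libraries). The code was tested on simulated data. Coordinates are from Gencode M21 on GRCm38, and promoter windows from RefSeq. The members and gene lists were chosen with earlier results of these data known. Named were all members and, from each other list and comparison, up to 2 called genes per direction with the smallest p, and for each member the 3 genes most correlated with it. Approximate intervals are built from the standard error. Intervals and read numbers cover the counts as deposited, without molecular identifiers.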

Additional observations from a re-analysis of the deposited data

Results flagged for a closer look

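Single libraries standing apart in their group were searched for in 20 sets of values (10 genes in the 2 DEN tumour groups, since larger groups were not searched), and 3 were found, where chance would give about 1, or 1 in 20. That chance figure takes the 20 sets as independent, whereas the sets of a group share their libraries. All 3 belong to 1 library, the control DEN tumour T21. Its Cdkn1a level was log2 4.40 CPM, with the other 4 tumours between 6.05 and 6.63. Its Mdm2 level was log2 5.30 CPM against 6.203 to 6.54 in the others, and its Phlda3 level log2 1.36 CPM against 4.10 to 5.08. Without T21, the lowest control DEN tumour for these 3 genes, the log2 fold change against control livers was 5.20 for Cdkn1a and 5.87 for Phlda3. Leaving out the lowest tumour raises the fold change, so these values are no check of the calls.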

How the results depend on the processing

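Of 1190 member values recomputed under the alternatives, 1153 kept their direction and their side of the threshold. Another 34 values changed sign with none past the threshold, and 3 calls moved. In some comparisons leaving out T9 or T24 was both a named alternative and a leave-one-out fit, so some values enter these totals again. All members called higher in the tumour comparisons kept their calls in every fit that was run. In those comparisons only tumours were left out in turn (12, 8 and 5 fits), never a liver. For DEN against spontaneous tumours only the 8 DEN tumours were left out in turn, and for the interaction only the 5 control DEN tumours. With all 6 groups together the count of members called for diet in liver went from 1 to 0. Leaving out 1 library gave 1 to 2 members for diet in liver (Phlda3 joining without N13, log2 0.78, adjusted p = 0.0256) and 0 to 1 for the interaction. The livers and tumours share some numbers, but N2 was on the control diet and T2 on the ALIOS diet, so a number does not mark a mouse. Same-numbered libraries within the ALIOS tumour comparisons did not deviate together (correlations of −0.17 to 0.08 over 6 pairs). With a replicate block, which joined only those pairs, 9 of 10 members stayed higher in both ALIOS tumour comparisons (Cdkn1a 3.42 and 4.34, Ccng1 0.57 and 0.97). Such a block cannot account for tissues of the same mouse. Log2 values that changed sign were, for total counts without adjustment, Bax 0.011 (diet in liver), and Ccng1 0.059, Gdf15 0.046 and Trp53 0.058 (diet in DEN tumours). Without T24 they were Ccng1 0.010 and Gdf15 0.0069 (diet in DEN tumours) and Trp53 −0.029 (interaction), without T9 Bbc3 −0.017 (DEN against spontaneous), and for Trp53 in the interaction −0.0062 by DESeq2, −0.0075 with RLE size factors and −0.016 with all groups. Over leave-one-out fits the ranges that crossed 0 were −0.12 to 0.10 for Bbc3 in DEN against spontaneous tumours, −0.15 to 0.22 for Cdkn1a, −0.21 to 0.14 for Ccng1, −0.14 to 0.083 for Gdf15, −1.47 to 0.14 for Eda2r and −0.069 to 0.0012 for Trp53 in diet in DEN tumours, and −0.030 to 0.28 for Trp53inp1 and −0.013 to 0.023 for Trp53 in the interaction. Counts over all genes moved more. For diet in liver, 923 higher and 619 lower became 1430 and 985 by DESeq2, 184 lower with total counts, 485 and 138 with all groups, and 609 to 1259 and 339 to 1084 with a library left out. Total counts gave 2059 lower in place of 3675 in spontaneous and 1822 in place of 2856 in ALIOS DEN tumours. The share of calls that were higher went from 59.9% to 87.1% (diet in liver), 50.9% to 72.9% (spontaneous) and 58.3% to 73.9% (ALIOS DEN), with the median of all genes moving from 0.01 to 0.19 and from 0.08 to 0.21 in the 2 tumour comparisons and from 0.04 to 0.14 for diet in DEN tumours. The members' medians moved to 1.28, 1.63 and 0.05. DEN against spontaneous tumours gave 337 higher and 66 lower with all groups, and 0 to 8 higher and 0 to 7 lower with a library left out. Diet in DEN tumours gave 171 and 125 with all groups, 1 lower with no filter, 7 and 7 without T24, and 0 to 7 higher and 0 to 14 lower with a library left out. The interaction went from 162 above and 192 below 0 to 315 and 331 by DESeq2, 125 below with total counts, 101 above with no filter, 91 above with all groups, 329 and 403 without T24, and 58 to 207 above and 114 to 239 below with a library left out. The cause of these moves was not tested. Depth limits Eda2r and Phlda3 in control livers, which had 3 to 23 and 5 to 19 reads a library.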

Other observations

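For each member the genes whose levels followed it most closely were ranked by Spearman's rho of log2 CPM over 48 libraries, after subtracting each group's median. The coefficients are a description, since the libraries share groups and depth and 17727 genes were ranked. Cdkn1a was followed most closely by Fam212b (0.85), Tmem43 (0.83) and Psrc1 (0.79), and Mdm2 by Cdc42bpg, Rfx7 and Ercc5 (all 0.82). Ccng1 had Exoc4 (0.87), Ddias (0.82) and Prrg4 (0.82), and Ddias also led for Eda2r (0.73), ahead of Zak and Gm37795 (both 0.72). Phlda3 had Aaas (0.81), Homer3 (0.79) and Etv4 (0.77), and Trp53inp1 had Adam9 (0.85), Slc30a7 (0.81) and Alcam (0.79). Bax was followed by Bloc1s2 (0.76), Phc2 and Adprhl2 (both 0.75). Bbc3 had a different neighbour in Nr0b2 (0.79), which encodes the bile acid responsive repressor SHP, followed by Mcat (0.71) and Kptn (0.67). The closest genes were less close for Trp53, with Sav1 (0.66), Epn2 (0.62) and Arhgap1 (0.59), and for Gdf15, with Ddit4l, Hr (both 0.56) and Cd81 (0.55).

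Over all 45 pairs of the 10 genes, Pearson's r was positive in 24 pairs in control livers (median 0.06) and in 37 in ALIOS livers (median 0.31). It was positive in 39 pairs in spontaneous ALIOS tumours (median 0.65) and in 33 in ALIOS DEN tumours (median 0.31). Pairs of other genes were not computed, so these counts have no share over all genes beside them.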
